A study of Canis lupus familiaris with 30 samples.

Results

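The receptor tyrosine kinase *RET*, its co-receptors *GFRA1*, *GFRA2*, *GFRA3*, *GFRA4* and *GFRAL*, the ligand *GDF15* and the adaptors *GAB1*, *GAB2* and *SHC3* were followed across canine thyroid tumors. Members were chosen by gene symbol, and all 10 were found, each on 1 of the 30424 rows of the gene count table. The study had reported *GFRA4*, *GDF15*, *GAB1*, *GAB2* and *SHC3* as correlated with *RET* or raised in medullary carcinomas of these same tumors. Their likeness to *RET* here is therefore not independent of that choice. RNA from 30 primary thyroid tumors of dogs, 1 library a tumor, was sequenced after removal of ribosomal RNA. The sample labels name every sample as tumor tissue of the thyroid gland and give no histologic class, treatment or age, so tumors are described one by one and the follicular and medullary carcinomas of the study were not compared. Without a second library of any tumor, the intervals given here cover the counting error of 1 library only.

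RET spans the cell membrane and is switched on by ligands of the GDNF family, each of which first binds a GFRA co-receptor held at the cell surface. GDF15, a distant relative released by stressed cells, signals through RET by way of GFRAL. Activated RET recruits adaptor proteins, among them the SHC and GAB families, which pass the signal to the RAS-MAPK and PI3K pathways. In the thyroid, RET is known as a product of the calcitonin-secreting C cells and as a cancer gene of the carcinomas that arise from them. No nucleotide or protein sequence of the members was used here.

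Between 12288945 and 45148677 reads were counted on genes in a tumor. Counts were divided by the size factor of the tumor, which ranged from 0.279 in TC538 to 1.62, and these values are called normalized counts. A level is log2 of the normalized count plus 1. TC538 had the fewest reads, with 17786560 in the next tumor, TC2089. Its size factor stood apart, since the next was 0.713. A gene was called detected where 5 or more tumors had 10 or more counts of it, which held for 18711 genes. Of the members, 9 were detected, and *GFRAL* was not.

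*RET* (ENSCAFG00000007076) was counted in all 30 tumors and split them by a wide gap. Its normalized count was lowest in TC812 at 14.6, had a median of 124 and was highest in TC1936 at 22938. TC1601 followed with 14054, TC1020 with 12078, TC2289 with 11938 and TC1473 with 8207. The next tumor, TC815, reached 663, and TC538 reached 609 from 170 counts. No tumor lay in between, and the step between TC815 and TC1473 was 3.63 on the log2 scale. A step at least as wide was found in 246 of 18711 detected genes (1.31%). A widest step of 1 or more was ordinary, found in 8111 of them (43.3%). With median-of-ratios normalization and a pseudocount of 1, 25 tumors thus lay below the step and 5 above it. Of the 29 pairs of neighbours in the order of *RET*, 7 had exact 95% Poisson intervals that did not overlap. TC1020 and TC2289 could not be told apart by them, and neither could TC815 and TC538. In bulk tissue, fewer cells that make a transcript and less of it in each cell cannot be told apart.

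**Figure D1:**
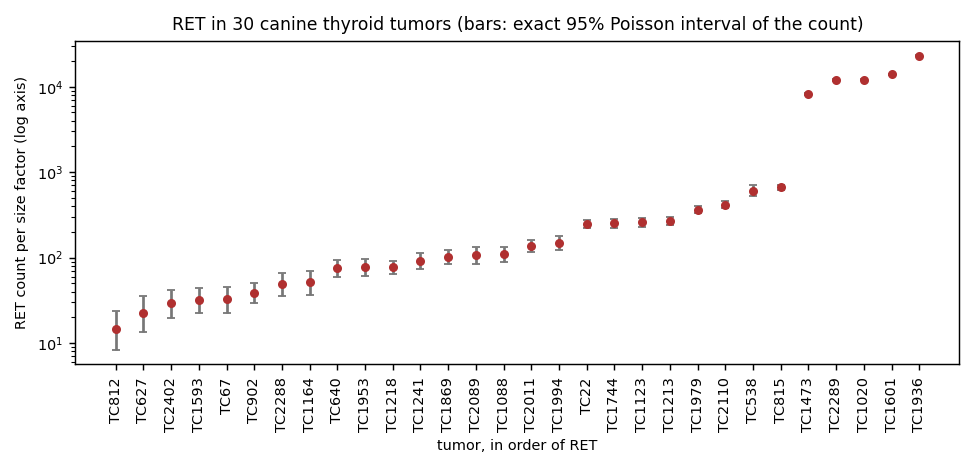
Normalized *RET* count (log axis) of each of the 30 tumors in ascending order, 1 point a tumor, with the exact 95% Poisson interval of its count. The curve climbs without a wide step from TC812 (14.6) to TC815 (663) and then jumps to TC1473 (8207) and 4 further tumors.

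Markers of C cells and of follicular cells gave each tumor a second description. *CALCA*, which encodes calcitonin, had a level of 19.24 in TC1936, 18.70 in TC1020, 17.78 in TC1473 and 16.80 in TC1601, the 4 highest of 30. TC2289, with nearly as much *RET* as TC1020, had 95 counts of *CALCA*, a level of 6.94. It was therefore in the range of the tumors below the *RET* step for this marker. Its paralog *CALCB* had 277 counts there, and reads of the pair may be shared between them. Of the tumors below the step, TC22 had the most *CALCA*, a level of 12.90, with a *RET* level of 7.95.

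*TG*, the thyroglobulin gene of follicular cells, did not mirror *RET* in each of these tumors. It had 248274 counts in TC1601, a level of 17.70, against a median level of 19.16 in the 25 tumors below the step. TC1020 had 74 counts and TC2289 had 65. The fewest *TG* counts, 12, were found in TC1088, which also had 1 count of *CALCA* and 110 counts of *RET*. *PAX8*, a transcription factor of the follicular lineage, was lowest in TC2289 at 6 counts. The share of *TG*-bearing cells in TC1601 was not measured.

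The tumors with the 5 highest values were the same for *GAB2* as for *RET*. Over all genes, 336 of the 18710 detected genes other than *RET* had these 5 highest tumors (1.8%), a count that was chosen after the values were seen. Of the other 8 detected members, *GAB2* alone did. Of the C-cell list, 5 of 8 detected genes did, namely *SCG2*, *SCG3*, *SYP*, *DDC* and *PCSK1*. Secretogranins, a vesicle protein, an amine-synthesis enzyme and a prohormone convertase are among them. *CALCA*, *CALCB* and *CHGB* did not, each with 1 or more of the 5 tumors ranked lower. *HOXB5*, a factor known to act on *RET* transcription, also had the same 5 tumors on top, as 1 of 3 detected genes of its list. Its margin was thin, with a level of 10.43 in TC1473 against 10.06 in TC2011. *PHOX2A* and *SOX10* of that list did not, and *SOX10* was lower in all 5 than its median level in the other 25 tumors, 7.75. *CASR*, the calcium-sensing receptor shared by C cells and parathyroid, had these 5 tumors on top, as 1 of 2 detected parathyroid genes. No gene of the follicular, macrophage, lymphocyte, fibroblast, endothelial, Schwann cell, muscle or adipocyte lists did.

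Among the co-receptors, *GFRA4* (ENSCAFG00000006246), the co-receptor of persephin, had the widest step. Its normalized count was 14728 in TC1936, 2383 in TC1601 and 2192 in TC1020. TC22 followed with 55.6 and TC2289 with 52.5, from 79 and 41 counts. These neighbours had overlapping intervals, and the step between TC22 and TC1020 was 5.28 on the log2 scale. TC1473, which was among the 5 tumors with the most *RET*, had 4 counts of *GFRA4*. High *RET* was thus found with high *GFRA4* in TC1936, TC1601 and TC1020, with few counts in TC2289 and with almost none in TC1473. Over all 30 tumors the median was 3 counts, and 3 tumors had none, which allows up to 3 counts.

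*GFRA1* (ENSCAFG00000011782), the co-receptor of GDNF, was high in other tumors. It ranged from 0 counts in TC1869 through a median of 26 counts to 23376 counts in TC1241, and its range was wider than that of 99.8% of detected genes. The normalized count was 23490 in TC1241, 8262 in TC815, 3708 in TC812, 2958 in TC1593, 2094 in TC1979 and 1591 in TC1164. A step of 2.15 on the log2 scale separated these 6 tumors from TC67, which had 357. None of the 5 tumors with the most *RET* was among them, and the highest of those for *GFRA1*, TC1601, had 220 counts. The tumor with the least *RET*, TC812, and the one with the most below the step, TC815, both had high *GFRA1*.

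*GFRA2* (ENSCAFG00000010049), the co-receptor of neurturin, was counted in all tumors. It went from 1 count in TC1994 through a median of 21 to 508 in TC1213, and TC1213, TC1979, TC1164, TC640 and TC67 had the most. Its widest step, 1.08, lay at the low end, so no set of high tumors stood apart. TC1979 and TC1164 were also among the 6 tumors with high *GFRA1*. *GFRA3* (ENSCAFG00000001215) was near the detection limit, with a median of 4 counts, 36 in TC22 as the highest value and 0 in 4 tumors. *GFRAL* (ENSCAFG00000002331), the receptor of GDF15 in the hindbrain, had 0 counts in 22 tumors and at most 5. At this depth it was above the limit of 3 counts that a count of 0 allows in 3 tumors.

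**Figure D2:**
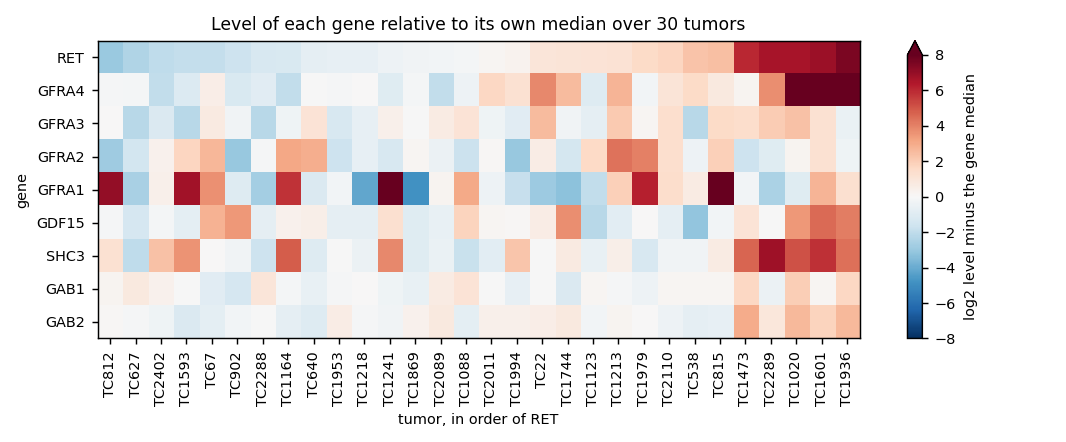
Level of the 9 detected members (rows) in the 30 tumors (columns, in ascending order of *RET*), as log2 level minus the median of the gene over the 30 tumors, with the colour scale ending at 8 on either side. *GAB2* and *SHC3* are above their medians in all 5 tumors at the right and *GFRA4* is far above its median in 3 of them, while the 6 dark cells of *GFRA1* lie elsewhere.

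Of the adaptors, *GAB2* (ENSCAFG00000004782), a docking protein that recruits PI3K and SHP2, was counted well above the detection limit in all tumors. Its normalized count was lowest in TC1593 at 638 and had a median of 1417. The highest was TC1473 at 11262, followed by TC1020 with 8538, TC1936 with 8379, TC1601 with 4874 and TC2289 with 2612. TC1744, next below with 2460, had an interval that overlapped that of TC2289. The place of TC2289 above TC1744 was thus not settled by its counts. Within the 5 tumors the order differed from that of *RET*, as TC1473 had the most *GAB2* and the least *RET* of them.

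*GAB1* (ENSCAFG00000003613), its close relative, varied less. It ranged from 414 normalized counts in TC902 through a median of 1036 to 4100 in TC1020, and its range was below that of most detected genes (percentile 30.5). TC1020, TC1936 and TC1473 had the 3 highest values, 4100, 3325 and 3255. TC1601 lay at 1172 and TC2289 at 751, so that these 2 tumors were within the range of the tumors with less *RET*. TC1088, with almost no *TG*, came next at 2222.

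*SHC3* (ENSCAFG00000002201), the SHC adaptor best known from neurons, spanned 1.81 to 10.60 on the log2 scale with a median of 3.81. It was highest in TC2289 at 1550 normalized counts, which was above the 807 of TC1601, the 470 of TC1020, the 358 of TC1473 and the 292 of TC1936. TC1164 with 397, TC1241 with 202 and TC1593 with 167 lay beside them. A step of 1.27 separated these 8 tumors from TC2402 with 68.6. Such a step is common, as 43.3% of detected genes had a widest step of 1 or more, so no distinct set is claimed. TC1164, TC1241 and TC1593 are 3 of the 6 tumors with high *GFRA1*, and their *RET* counts were 40, 91 and 38. High *SHC3* was therefore found in tumors with high *RET* and in tumors with high *GFRA1*. The other 3 tumors with high *GFRA1*, TC815, TC812 and TC1979, had 26, 35 and 6 counts of *SHC3*.

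The ligands had few counts in most tumors. *GDNF* had at most 2 counts, *PSPN* at most 5 and *NRTN* at most 17. *GDF15* (ENSCAFG00000014882) was the one detected gene of the 4 ligands looked for, with 0 counts in TC538, a median of 8 and 239 in TC1601. TC1936 had 140 counts, TC1744 had 122, TC1020 had 100, TC902 had 134 and TC67 had 62. Their normalized counts were 205 in TC1601, 148 in TC1936, 114 in TC1744, 96.7 in TC1020, 95.1 in TC902 and 59.1 in TC67, above TC1088 with 28.9. High *GDF15* was thus found in 3 of the 5 tumors with the most *RET* and in TC902 and TC67, which had 55 and 34 counts of *RET*. TC1473 and TC2289 had 20 and 6 counts. None of these 6 tumors other than TC1020 and TC1936 had more than 1 count of *GFRAL*.

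**Figure D3:**
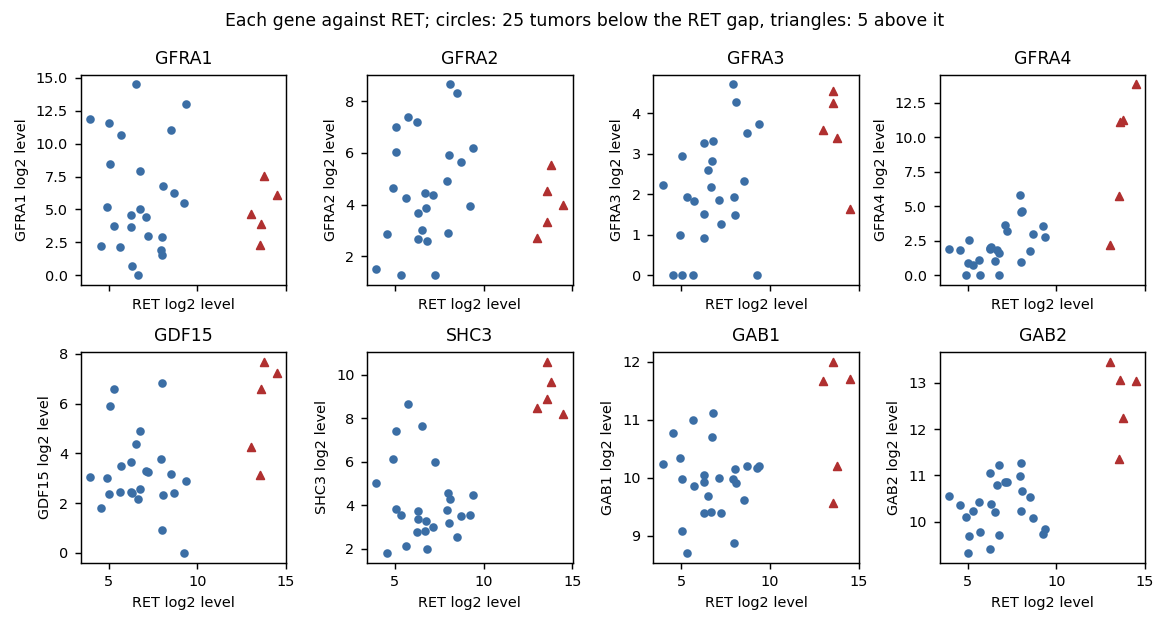
Level of 8 members against the level of *RET*, both log2 of the normalized count plus 1, 1 point a tumor, with circles for the 25 tumors below the *RET* step and triangles for the 5 above it. The triangles are the highest points for *GAB2* alone and overlap the circles for every other gene shown. The circles show no common slope with *RET* for most genes.

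Whether other members follow *RET* was asked only in the 25 tumors below the step, because a coefficient over all 30 would rest on the step. For *GFRA4*, whose counts there were near the floor, the coefficients with *RET* were positive (Pearson's r = 0.539, permutation p = 0.00543, Spearman's rho = 0.52, permutation p = 0.00825, two-sided, n = 25). This was 1 of 8 such relations computed. Without TC812 and TC815, the tumors farthest from the median *RET*, r was 0.586 (permutation p = 0.00358, n = 23). The median count in these 25 tumors was 3 for *GFRA4* and 4 for *GFRA3*, and each had 10 or more counts in only 4 of them. Both passed the detection rule only with the tumors above the step and were too low for the filter of the fit over all genes. Their coefficients thus rest on counts near the floor. In edgeR's quasi-likelihood test without that filter the adjusted p of *GFRA4* was 0.144 over 28630 genes, so the relation did not pass. *GFRA3* had r = 0.381 (permutation p = 0.0621, n = 25), which became 0.559 without TC538 (permutation p = 0.00461, n = 24), and an adjusted p of 0.392 in edgeR's unfiltered fit. *GFRA1* had r = -0.03, *GFRA2* 0.31, *GAB1* -0.05, *GAB2* 0.15, *SHC3* -0.19 and *GDF15* -0.22, none with a permutation p below 0.05. *GAB2* and *SHC3*, high where *RET* was highest, thus showed no detectable relation with *RET* among the other 25 tumors.

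The same question was put to all genes. In edgeR's quasi-likelihood test of the slope on the *RET* level over 25 tumors and 18105 genes, 1 gene rose with *RET* (0.00552%) and 0 fell (0%), with Benjamini-Hochberg adjusted p below 0.05. At an unadjusted p below 0.05, 1179 genes had positive slopes and 400 negative ones, and DESeq2 called 54 and 7 at the adjusted threshold. This lean towards positive slopes was lost without TC538 (1167 and 1150, with 4 and 0 called by edgeR) and with the size factor as a covariate (666 and 680, with 0 called). The gene called, ENSCAFG00000027395, has no symbol in the table (adjusted p = 0.0195 in edgeR). No member passed. The lowest p among them was that of *SHC3*, with a slope of -0.65 log2 units per log2 unit of *RET* (SE 0.29, edgeR adjusted p = 0.538, 0.211 to 0.97 over the alternatives). The slopes were 0.41 for *GFRA2* (SE 0.27), 0.06 for *GFRA1* (SE 0.46), 0.06 for *GAB2* (SE 0.08), -0.05 for *GAB1* (SE 0.08) and -0.17 for *GDF15* (SE 0.26).

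No gene of the pathway lists passed in this fit of 25 tumors. Of the adaptor and effector list, 24 of 27 genes were tested and 0 passed, and 12 of the 24 slopes were positive, against 9767 of 18105 over all genes. Of the RAS-MAPK output genes, 0 of 13 passed, and 12 of 13 slopes were positive with a median of 0.18 against 0.01 over all genes. Of the C-cell markers tested, 0 of 7 passed, all 7 with positive slopes and a median of 0.23. The lean was alike in the endothelial (4 of 4 positive, median 0.30), fibroblast (5 of 5, median 0.28) and lymphocyte markers (3 of 3, median 0.22), with 0 passing in each. Of the follicular markers, 0 of 8 passed. The membrane partners of RET (6 tested), the integrated stress response list (11), the p53 targets (9) and every other cell type list also had 0 genes past the threshold.

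The 10 genes with a symbol, a positive slope and the lowest p were *BMERB1*, *ADAM32*, *MT-ND3*, *MTRNR2L3*, *B2M*, *APOLD1*, *S1PR1*, *SAA1*, *JCAD* and *AGMO*. In edgeR their adjusted p ranged from 0.0737 to 0.212, so none passed. Without TC538, 2 of the 10 passed, while edgeR adjusted p reached 0.851 and the smallest slope was 0.07. With the size factor as a covariate, 0 passed. Those with negative slopes, *RIMBP2*, *PROB1*, *SFRP5*, *FSTL3*, *B4GALNT3*, *RORB*, *ERICH6B*, *TP53INP1*, *BCL7A* and *PDIA2*, had adjusted p of 0.215 to 0.31.

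*GDF15* was put to the same test in the 24 tumors below its own step of 1.01, which was barely past the limit of 1 set for a step. That limit was met by 43.3% of detected genes. In edgeR's fit, 394 of 18134 genes rose with *GDF15* (2.17%) and 530 fell (2.92%). Single tumors decided much of this. Without TC538, which had no *GDF15* count and the fewest reads, 199 genes rose and 6 fell. Without TC1088, which had the most *GDF15* of the 24, 214 rose and 631 fell. A Spearman correlation with permutation called 0 in either direction, with 560 and 557 genes at an unadjusted p below 0.05.

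No member tested passed in the *GDF15* fit, and *GFRA4* and *GFRAL* were too low for its filter. *GAB2* had a slope of 0.45 (SE 0.17, edgeR adjusted p = 0.125, 0.00922 to 0.966 over the alternatives), *GFRA1* 1.88 (SE 0.78, adjusted p = 0.171, 0.0461 to 0.909) and *SHC3* 1.45 (SE 0.67, adjusted p = 0.225, 0.0301 to 0.908). The lowest of these came from DESeq2 for *GFRA1* and *SHC3* and from all 30 tumors for *GAB2*, whose slope was 0.01 in the 22 tumors that also lay below the *RET* step. *RET* itself had a slope of 0.76 (SE 0.48, edgeR adjusted p = 0.396), which was 1.37 without TC538, 1.36 with the size factor as a covariate and -0.35 in those 22 tumors. Over all 30 tumors it was 0.79 (edgeR adjusted p = 0.0255), but that fit holds the tumors above the *RET* step and so rests on the step. *GFRA4* had a slope of 1.86 there. It met the filter only with the tumors of high *GDF15*, TC1936, TC1601 and TC1020 among them, so this slope is no test of the relation.

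Of the RAS-MAPK output genes, 4 of 13 rose with *GDF15*, namely the phosphatases *DUSP5* and *DUSP6*, the transcription factor *ETV5* and the feedback inhibitor *SPRY2*. *DUSP6* had a slope of 0.73 (SE 0.16, edgeR adjusted p = 0.01), and *DUSP5* one of 0.76 (SE 0.17, adjusted p = 0.012). Without TC1088, 0 of the 13 passed. The slope was then 0.40 for *DUSP6* (edgeR adjusted p = 0.169), 0.65 for *DUSP5* (adjusted p = 0.064), 0.28 for *ETV5* and 0.23 for *SPRY2*, against 0.65 for each of the last 2 in the full fit. Without TC538, *DUSP5* and *DUSP6* passed, and *ETV5* and *SPRY2*, with slopes of 0.66 and 0.83, did not (edgeR adjusted p = 0.0972 and 0.0584). In the 22 tumors that also lay below the *RET* step, 5 of the 13 passed, but that set keeps TC1088 and TC538. The C-cell markers *CALCA* (slope 2.54, SE 0.60, edgeR adjusted p = 0.0145) and *CHGB* (slope 3.25, SE 0.93, adjusted p = 0.0397) also rose, 2 of 8 tested. In the 22 tumors below the *RET* step, which leave out TC1473 and TC2289, 0 of them passed. Of the 9 p53 targets tested, *SESN1* fell (slope -0.41, edgeR adjusted p = 0.0248), a call lost without TC538 (adjusted p = 0.719). Of the integrated stress response list, whose factor ATF4 is known to drive *GDF15*, 0 of 11 passed. The macrophage, lymphocyte, fibroblast, endothelial, Schwann cell, muscle, parathyroid, adipocyte and follicular lists had 0 genes past the threshold in this fit.

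**Figure D4:**
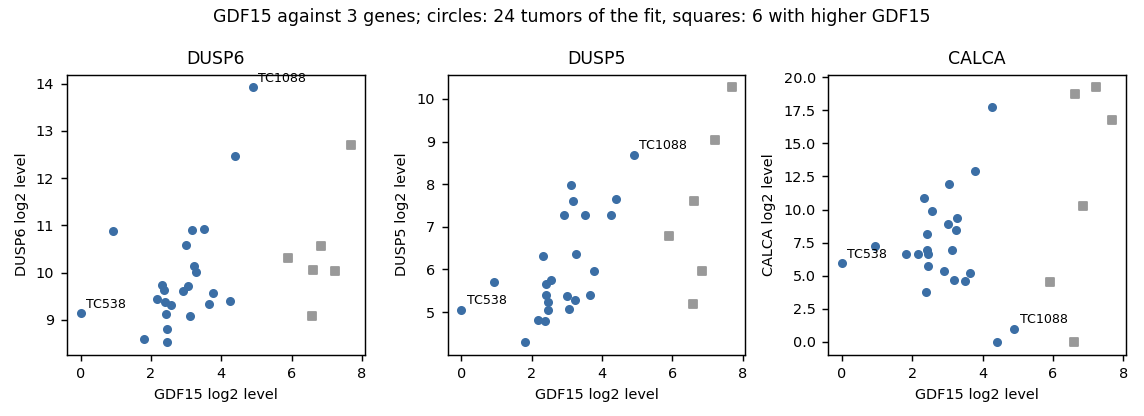
Level of *DUSP6*, *DUSP5* and *CALCA* against the level of *GDF15*, each as log2 of the normalized count plus 1, 1 point a tumor, with circles for the 24 tumors of the fit and squares for the 6 with more *GDF15*. TC1088 is at the upper right end of the circles for both phosphatases and near 0 for *CALCA*, and TC538 is the circle at 0 for *GDF15*.

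Among the genes with the lowest p, those that rose with *GDF15* were *SLC27A1*, *LRP4*, *CCL19*, *PKP1*, *HAP1*, *CYP2F1*, *ABCC5*, *FAM20A* and *CYP2J2*, with edgeR adjusted p of 0.000467 to 0.00245. All 9 passed without TC538, while 3 of the 8 that could be tested passed without TC1088. Those that fell were *TLCD4*, *AGMO*, *ADAM32*, *MLIP*, *TINAG*, *FAM133B*, *UGT8*, *TCHHL1*, *SLC35A3* and *FBXL13*. All 10 passed without TC1088, and 0 of 9 passed without TC538. The calls of the falling genes that could be tested thus needed TC538, and those of 5 of the 8 rising genes needed TC1088.

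The order of the 30 tumors was compared between genes as the mean absolute difference in rank, where 0 is the same order. For *RET* the median over all detected genes was 9.93, and the nearest genes with a symbol were *HAAO*, *LFNG* and *NMU* at 4, *CPLX2* at 4.13 and *CBFA2T3* at 4.2. The nearest member was *GFRA4* at 5.33, nearer than all but 0.481% of genes, and *GFRA3* at 6.57 and *GAB2* at 6.73 came next. These ranks include the tumors above the *RET* step and so rest partly on it. *GFRA4* and *GFRA3* also had medians of only 3 and 4 counts, with tumors tied at 0. *GFRA1* was at 10, no nearer than a median gene. For *GFRA4* the nearest genes were *PAPPA2* at 3.53, *SCG2* at 3.87 and *TMEM176A* at 4.07, and for *GAB2* they were *TPPP3* at 3.87, *DDC* at 4 and *TMEM176A* at 4.07. *SCG2* and *DDC* are on the C-cell list. For *SHC3* they were *FAM222A*, *SYT5* and *CELSR3*, at 3.6 to 4.4.

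The remaining members had less close neighbours. *LSAMP*, *RBM15* and *CEP89* were nearest to *GFRA1*, at 5.07 to 5.33. For *GFRA2* they were *QSOX2*, *SDC4* and *GRID1*, at 4.67 to 4.87, and for *GFRA3*, with its few counts, *LY6H*, *DIPK1B* and *SEPTIN5*, at 4.2 to 4.43. *NMT2*, *TNMD* and *DSCC1* were nearest to *GAB1*, at 5.13 to 5.33. For *GDF15* they were *CD81*, *CD74*, *TMCC2*, *SLCO2B1* and *C18H11orf49*, at 4.73 to 5.27. These rank distances are descriptions over 30 libraries that share their processing, and no test was made of them.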

How the data were processed

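RNA-seq of 30 canine thyroid tumors was analysed from 1 table. The authors aligned their paired reads with STAR to the CanFam3.1 genome, and the table they deposited holds raw read counts per Ensembl gene. Its strand setting was not given in the sources used here, so the value of a gene that has an antisense neighbour is uncertain. The table held 30424 genes, 15780 with a symbol, and 0 columns of no sample.

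Size factors (median of ratios) used the 15611 genes counted in every tumor. Levels were log2 of the normalized count plus 1. The slope on a member's level was tested by quasi-likelihood in edgeR 4.0.16 (R 4.3.3) after TMM normalization. Benjamini-Hochberg adjustment was over all genes that had 10 or more counts in 5 or more tumors of the fit. The script was checked on counts simulated for the *RET* fit. It recovered 52 of 100 genes with a slope of 0.5 in either direction and 95 of 100 with a slope of 1. Slopes near 0.5 could thus often be missed. Tumors were divided at the widest step of the covariate if it was at least 1 log2 unit, and the larger side was fitted. The smaller sides were not fitted or compared, since the classes would then follow the measured values. Correlations used 100000 permutations. DESeq2 1.42.0 was an alternative. Python 3.11.15, numpy 2.4.6, scipy 1.17.1, pandas 2.3.3 and matplotlib 3.10.9 were used elsewhere. Intervals and floors of 3 counts cover counting error only, as molecular identifiers were not counted.

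Named genes were the members, defining markers, list genes past the threshold, the 10 genes with a symbol and the lowest p in each direction, and the genes nearest in rank (5 for *RET* and *GDF15*, 3 for other detected members). Other genes were named after their values were seen, among them *HOXB5*, *CASR* and the ligands. Members and lists were chosen with earlier results of these data known. *SHC2*, *IRS1*, *PDLIM7*, *PHLDA3*, *INSM1*, *CD14* and *ADIPOQ* were not analysed here, and the results of some other genes of the lists and rule are not reported here. Levels were not compared between genes, since gene lengths of this build were not used here.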

Additional observations from a re-analysis of the deposited data

How the results depend on the processing

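No paired analysis was possible because each tumor had 1 library and the labels give 1 group.

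The number of genes that rose with *RET* in 25 tumors was 1. It was 54 with DESeq2, 38 without a count filter, 4 without TC538, and 0 with a stricter count filter (50 counts), with the size factor as a covariate and with Spearman permutation. The number that fell was 0, and 7 with DESeq2 and 9 without the filter. For *GDF15* in 24 tumors, 394 genes rose. This became 643 with DESeq2, 979 without a count filter, 216 with the stricter filter, 214 without TC1088, 199 without TC538 and 0 with Spearman permutation, whose smallest p, 1e-05, limits adjustment over all genes. The number that fell, 530, became 316 with the stricter filter, 105 with a pseudocount of 8, 6 without TC538, 11 without the 2 farthest tumors, 8 with the size factor as a covariate and 0 with Spearman permutation. Over all 30 tumors, an alternative added after seeing the data, 1253 rose and 873 fell. The *GDF15* fit only below the *RET* step (483 and 776) and the *RET* fit without TC22 (1 and 0) were also added then. The cause of these changes was not tested, beyond the fewer genes or tumors of some settings.

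The correlation of *GFRA3* with *RET*, 0.38, passed an unadjusted p of 0.05 with TMM-scaled levels (0.42), with a pseudocount of 8 (0.41) and without TC538 (0.56). The correlation of *GFRA1* with *RET* changed sign as Spearman's rho (0.0046), and its slope, 0.06, was -0.57 without the 2 farthest tumors and -0.0181 with the size factor as a covariate. On *GDF15*, *GFRA2* changed from -0.08 to 0.14 without TC1088 and to 0.10 below the *RET* step, *RET* from 0.76 to -0.35 below the step, *ADAM32* from -1.29 to 0.0124 without TC538, and *FBXL13* from -0.95 to 0.0137 without TC538 and 0.16 without the 2 farthest tumors. The median level of *GFRAL* moved from 0 to 3 with a pseudocount of 8, which is log2 of that pseudocount. Counted once for each named gene and alternative setting, 583 other slopes stayed on their side of the threshold, 51 lost it and 22 gained it. The 583 include slopes that passed neither in the main fit nor in the alternative.

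Depth limits *GFRAL*, *GDNF* and *PSPN*, with at most 5 counts, and *GFRA3*, *GFRA4* and *GDF15* in the many tumors with few counts (medians 4, 3 and 8). The *GDF15* step of 1.01 fell to 0.863 with a pseudocount of 8.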
